A study of Mus musculus with 96 samples.

Results

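The genes described here are the 37 glycolysis and hypoxia response genes of a mouse intestinal organoid study, chosen by name from the 55536 genes of its expression tables. Of these, 21 carry glucose through glycolysis to lactate (transporters, enzymes and regulators), and 16 belong to the pathway of the hypoxia-inducible factors (HIF subunits, their hydroxylases and known targets). Organoids are self-organising epithelial cultures, here from C57BL/6 mice, and their RNA was sequenced to follow gene expression after the circadian clocks of the cells had been synchronized with dexamethasone, a glucocorticoid. There were 4 genotypes. Apc-min Bmal1-null organoids carry the Apc-min genotype (labelled APCmin/-) and lack functional Bmal1. Apc-min organoids carry the same Apc genotype with wild-type Bmal1, Bmal1-null organoids are wild type for Apc, and control organoids are wild type for both. Every group was treated with 0.1 µM dexamethasone for 1 h and collected at 12 times, every 2 h from 24 to 46 h later. The 88 libraries with values comprise 22 per genotype, and 8 of the groups defined by genotype and time have 1 library in place of a pair.

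Apc restrains Wnt signalling by promoting the destruction of beta-catenin, and the min allele truncates the protein. Bmal1, encoded by Arntl, is the transcription factor that drives the circadian clock together with Clock. Glycolysis turns glucose into pyruvate, which lactate dehydrogenase can reduce to lactate. HIF-1 and HIF-2 each pair an alpha subunit with a common beta subunit. In the presence of oxygen, prolyl hydroxylases mark the alpha subunits for destruction, so that the factors are controlled mainly at the level of protein and their activity is commonly read from their target genes, among them most glycolytic enzymes. HIF dimers bind core sequences that include ACGTG, the form counted below. Clock and Bmal1 bind the E-box CACGTG, which contains ACGTG.

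The core ACGTG was found more often in the promoter windows of these genes than in those of genes in general. Promoter windows from 250 bases before to 50 bases after each listed start (RefSeq, build GRCm38.p6) were found for 34 members, and in 23 of them, or 67.6%, at least 1 window held ACGTG on either strand, against 21.8% of all 27025 genes with a window. The share was 61.9% among the glycolysis members and 76.9% among the HIF members with a window. CACGTG, which counts as ACGTG on both strands, was present in 5 members, or 14.7%, against 8.09% of all genes. Genes can have several windows, and counted by window 26 of 50 members' windows held ACGTG (52%), against 19.6% of 32851. The members were chosen by name and include known HIF targets, and the genes compared were not matched for base content or level. A match describes the letters and not binding. The 150 bases before the start are shown for the genes on which the results below turn most. Of these, 5 hold ACGTG (in capitals, in either orientation), and Adm has a single window without ACGTG. Other forms of the core, such as GCGTG, are neither marked nor counted here. Ldha has a second listed start, whose 150 bases (chr7:46846932-46847081) hold no ACGTG.
Slc16a3, chr11:120948917-120949066, plus strand: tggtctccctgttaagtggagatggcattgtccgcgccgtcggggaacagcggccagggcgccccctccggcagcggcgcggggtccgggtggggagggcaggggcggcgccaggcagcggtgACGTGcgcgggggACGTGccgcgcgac
Bnip3, chr7:138909507-138909656, minus strand: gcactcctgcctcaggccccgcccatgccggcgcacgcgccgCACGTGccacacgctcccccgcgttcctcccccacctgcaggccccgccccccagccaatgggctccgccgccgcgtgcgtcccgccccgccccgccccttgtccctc
Car9, chr4:43506876-43507025, plus strand: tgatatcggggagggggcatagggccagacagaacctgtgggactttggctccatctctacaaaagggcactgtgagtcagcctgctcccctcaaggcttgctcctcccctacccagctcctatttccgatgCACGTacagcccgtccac
Ldha, chr7:46845654-46845803, plus strand: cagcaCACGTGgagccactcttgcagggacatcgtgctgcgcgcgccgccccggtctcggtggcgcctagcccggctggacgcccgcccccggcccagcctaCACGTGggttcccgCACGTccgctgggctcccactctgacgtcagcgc
Hif1a, chr12:73907717-73907866, plus strand: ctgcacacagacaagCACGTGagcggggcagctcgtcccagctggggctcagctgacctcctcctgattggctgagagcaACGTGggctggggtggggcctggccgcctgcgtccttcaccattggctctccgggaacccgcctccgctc
Adm, chr7:110627507-110627656, plus strand: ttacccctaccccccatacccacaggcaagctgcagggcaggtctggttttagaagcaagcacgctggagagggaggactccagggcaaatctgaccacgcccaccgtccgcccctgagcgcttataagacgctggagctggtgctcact

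Some features of the libraries touch every comparison. Per the labels EN medium was used for both Apc-min genotypes and ENR medium for the rest, and Apc-min libraries form a separate run of library numbers, so a difference between Apc genotypes cannot be told apart from medium and library series. Each genotype came from 2 organoid lines, but the labels do not tie a library to a line. The libraries of a time course share those lines, so p-values cover the scatter among libraries, with no line or animal as a unit. Within each group the lower-numbered and the higher-numbered library were also analysed apart, as 2 library sets. In both Bmal1-null genotypes the higher-numbered set expressed Xist (means of 63.97 TPM in Apc-min Bmal1-null and 67.04 TPM in Bmal1-null organoids) and hardly any Eif2s3y from the Y chromosome (0.049 TPM in Apc-min Bmal1-null and 0.112 TPM in Bmal1-null organoids), while all other sets expressed Eif2s3y at 50.4 TPM or more. The lower-numbered sets are thus matched for this Y-linked gene in both Bmal1 comparisons and the higher-numbered sets are not.

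Arntl RNA, the check on the Bmal1 labels, had a median of 4.47 TPM in Apc-min Bmal1-null and 11.34 TPM in Apc-min organoids, and of 8.72 TPM in Bmal1-null and 14.52 TPM in control organoids. It was lower in Apc-min Bmal1-null than in Apc-min organoids (log2 difference -1.01 ± 0.13, SE, adjusted p = 7.52e-08) and in Bmal1-null than in control organoids (-0.70 ± 0.06, adjusted p = 4.72e-10). The Apc-min allele is a point mutation, which RNA level does not check. A pair of libraries, called the doubted pair below, went against the labels in Arntl. Replicate 1 at 28 h of the libraries labelled Apc-min Bmal1-null had 14.7 TPM of Arntl, against 2 to 6.22 TPM in the other 21 libraries of that genotype, and replicate 1 at 28 h of those labelled Apc-min had 4.09 TPM, against 7.2 to 17.29 TPM. In the clock genes Nr1d1 and Dbp the Apc-min Bmal1-null library also lay above its genotype's other libraries (12.02 and 8.86 TPM). The Apc-min library lay within its genotype's range in these genes (6.04 against 5.4 to 19.28 TPM of Nr1d1, 6.29 against 2.81 to 16.21 TPM of Dbp). Both doubted libraries stand in the lower-numbered set, and the counts of called members below that they touch are also given without them. Medians, ranges and fold values include them unless said otherwise. Levels are in TPM, transcript counts scaled for gene length and library size. Differences are in log2(TPM + 1), which understates changes of low genes, and calls rest on limma with p-values adjusted by Benjamini-Hochberg over all genes tested, at a threshold of 0.05. Of the 37 members 36 were tested. Eno2, the neuronal enolase, had medians of 0.165 TPM or less in all 4 genotypes and was too low to test.

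With wild-type Apc, organoids without Bmal1 differed from controls by at most 0.27 on the log2 scale in any member. Of 36 members 1 was called, where 3.56% of all genes were called in either direction, and 6 had an unadjusted p under 0.05. Adm, the vasodilator peptide adrenomedullin, had a lowest, median and highest level of 7.85, 11.82 and 16.69 TPM in Bmal1-null and of 10.49, 14.36 and 19.37 TPM in control organoids. It was lower by -0.27 ± 0.07 on the log2 scale (SE, adjusted p = 0.0192, 22 libraries each), at 11 of 12 time points, with overlapping ranges. No member was called higher, and the log2 differences of the 36 members ran from -0.27 to 0.19. Without the control library of 28 h, replicate 2 the count was 0, and it was 2 without any of 3 Bmal1-null libraries (28 h replicate 2, 30 h replicate 1 and 32 h replicate 2).

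In Apc-min organoids the loss of Bmal1 went with lower levels of almost all of these genes. Of 36 members 31 were lower in Apc-min Bmal1-null than in Apc-min organoids and none was higher, where 35.7% of all genes were called lower. The median difference was -0.54 for the members and -0.04 for all genes. It was -0.99 for the HIF members (15 of 16 lower) and -0.41 for the glycolysis members (16 of 20 lower), and the difference between these groups was not tested. A difference of 2-fold or more was called for 9 members, against 6.42% of all genes. The ranges of the genotypes overlapped for every member, with or without the doubted pair. These counts take libraries as units. Fewer members were called with the mean of each genotype and library set as the unit, as given in the closing section.

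Both transporters were lower. Slc16a3, the lactate exporter MCT4, had a lowest, median and highest level of 0.33, 12.15 and 123.2 TPM in Apc-min Bmal1-null and of 0.32, 95.70 and 168.3 TPM in Apc-min organoids. Its level was 0.273-fold (log2 difference -1.87 ± 0.51, SE, adjusted p = 0.00212, lower at 11 of 12 time points). The highest of these Apc-min Bmal1-null values and the lowest Apc-min value were those of the doubted pair. Without it Slc16a3 ran from 0.33 to 71.58 TPM in Apc-min Bmal1-null and from 1.59 to 168.3 TPM in Apc-min organoids. Slc2a1, the basal glucose transporter GLUT1, ranged from 84.25 to 223.3 TPM in Apc-min Bmal1-null and from 119.2 to 296.2 TPM in Apc-min organoids (log2 difference -0.31 ± 0.08, adjusted p = 0.0014).

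Of 15 glycolytic enzymes tested 13 were lower. Their summed level had a median of 11605 TPM in Apc-min Bmal1-null and 18022 TPM in Apc-min organoids. Aldoc, the brain-type aldolase isozyme, differed most, with 8.63, 16.36 and 89.24 TPM (lowest, median and highest) in Apc-min Bmal1-null and 10.81, 61.26 and 171.9 TPM in Apc-min organoids (log2 difference -1.02 ± 0.27, adjusted p = 0.00173, 0.493-fold). Hk1, the hexokinase found in most tissues, had a median of 51.05 TPM in Apc-min Bmal1-null and 93.19 TPM in Apc-min organoids (0.595-fold, adjusted p = 9.19e-05). Among the most abundant enzymes, Gapdh had medians of 2600 TPM in Apc-min Bmal1-null and 3658 TPM in Apc-min organoids, with a log2 difference of -0.42 ± 0.08. For Aldoa the medians were 1579 TPM in Apc-min Bmal1-null and 2738 TPM in Apc-min organoids (-0.53 ± 0.12), and Ldha, which reduces pyruvate to lactate, had 1652 TPM in Apc-min Bmal1-null and 2506 TPM in Apc-min organoids (-0.37 ± 0.11). The enzymes not called were Pfkm and Pgk1 (-0.22 and -0.20, adjusted p = 0.0892 and 0.161). Of the regulators, Pdk1, a kinase that shuts pyruvate out of the mitochondrial oxidation pathway, was lower (-0.49 ± 0.18, adjusted p = 0.0171). Pfkfb3 and Pfkfb4, which set the level of the activator of phosphofructokinase, were not called (-0.32 and -0.08, adjusted p = 0.0505 and 0.413).

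All HIF alpha subunits were lower in Apc-min Bmal1-null organoids. Hif1a, the HIF-1 alpha subunit, had 22.75, 48.21 and 66.11 TPM (lowest, median and highest) in Apc-min Bmal1-null and 45.93, 58.01 and 72.95 TPM in Apc-min organoids. Its difference was small but lower at all 12 time points (-0.33 ± 0.08, adjusted p = 0.000565, 0.797-fold). Epas1, the HIF-2 alpha subunit, had 1.18, 3.045 and 9 TPM in Apc-min Bmal1-null and 2.59, 5.505 and 10.97 TPM in Apc-min organoids (-0.55 ± 0.13, adjusted p = 0.00075). Hif3a, whose variants can inhibit the other alpha subunits, had 0.21, 0.635 and 3.59 TPM in Apc-min Bmal1-null and 0.28, 3.71 and 9.76 TPM in Apc-min organoids (-1.03 ± 0.18, adjusted p = 9.47e-06, 0.491-fold).

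**Figure D1:**
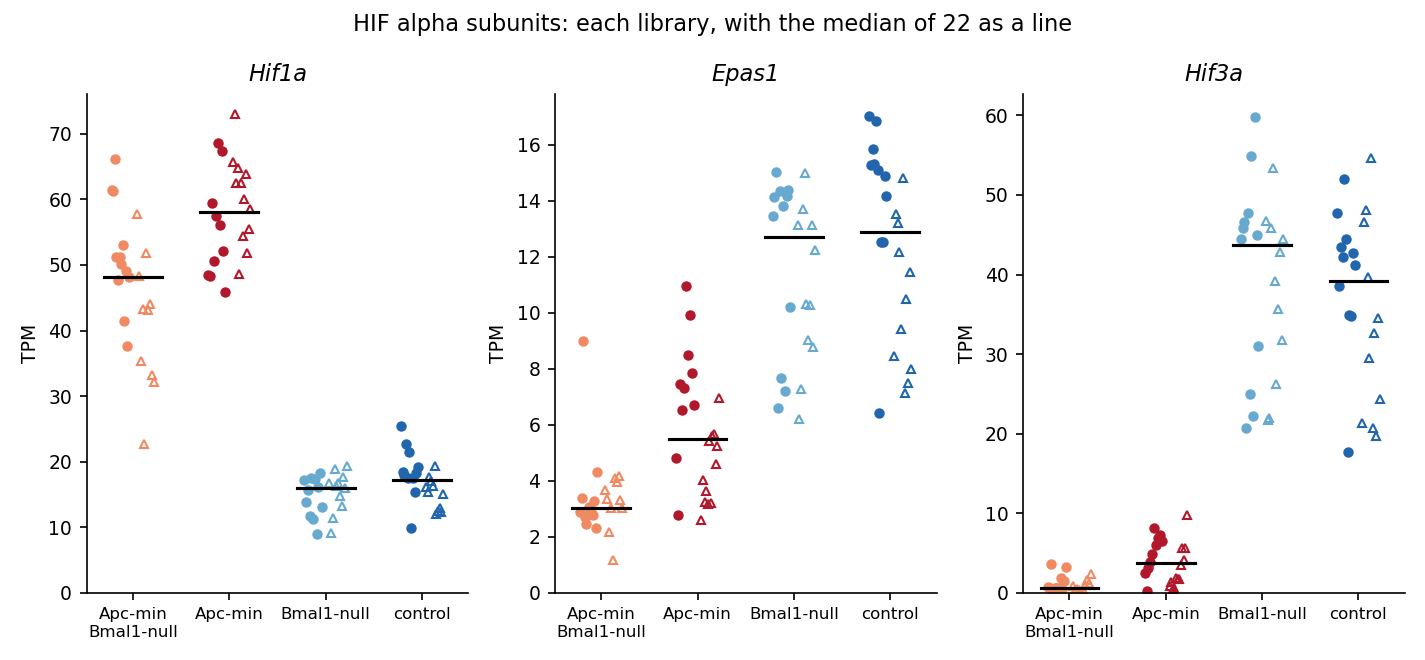
Level in TPM of the 3 HIF alpha subunits in every library of the 4 genotypes (filled circles, lower-numbered libraries; open triangles, higher-numbered libraries; line, median of 22 libraries). Hif1a is higher without overlap in Apc-min Bmal1-null than in Bmal1-null and in Apc-min than in control organoids. Hif3a is lower without overlap in the same pairs. Epas1 overlaps between genotypes, but without the doubted library not between Apc-min Bmal1-null and Bmal1-null organoids.

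Egln3, a prolyl hydroxylase that is itself a HIF target, had 8.63, 30.86 and 371.4 TPM (lowest, median and highest) in Apc-min Bmal1-null and 12.29, 200.7 and 553.7 TPM in Apc-min organoids. Its level was 0.242-fold (-2.05 ± 0.37, adjusted p = 2.33e-05), while that of Egln1, the main oxygen-sensing hydroxylase, differed by -0.54. Bnip3, a mitophagy receptor, differed most of all members, with 1.89, 14.08 and 268.1 TPM in Apc-min Bmal1-null and 2.11, 143.5 and 512.1 TPM in Apc-min organoids (-2.25 ± 0.51, adjusted p = 0.000366, 0.211-fold). Its relative Bnip3l differed by -0.73 ± 0.16.

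Of the remaining targets, Ndrg1, a stress-response gene, had 6.31, 17.30 and 176.7 TPM in Apc-min Bmal1-null and 10.98, 141.3 and 288.6 TPM in Apc-min organoids (-1.78 ± 0.32, adjusted p = 2.06e-05). Adm had 0.47, 2.17 and 35.64 TPM in Apc-min Bmal1-null and 1.11, 17.23 and 76.45 TPM in Apc-min organoids (-1.67 ± 0.40, adjusted p = 0.000593). The highest Apc-min Bmal1-null value of both genes was that of the doubted library. Without the pair the highest was 120.8 TPM for Ndrg1 and 11.14 TPM for Adm in Apc-min Bmal1-null, against medians of 145.2 TPM for Ndrg1 and 19.10 TPM for Adm in Apc-min organoids. P4ha2, a collagen prolyl hydroxylase subunit, had 6.70, 14.63 and 75.83 TPM in Apc-min Bmal1-null and 10.93, 49.12 and 113.8 TPM in Apc-min organoids (-1.34 ± 0.23, adjusted p = 9e-06). Vegfa, the vascular growth factor, had 5.19, 16.77 and 133.9 TPM in Apc-min Bmal1-null and 8.92, 59.74 and 233.3 TPM in Apc-min organoids (-1.25 ± 0.35, adjusted p = 0.00289). The exception was Car9, the cell-surface carbonic anhydrase often used as a hypoxia marker. It had 28.72, 71.05 and 149.3 TPM in Apc-min Bmal1-null and 35.81, 84.28 and 148.7 TPM in Apc-min organoids, and its difference was 0.00 ± 0.10 (adjusted p = 0.986).

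The other members called were lower as well. Gpi1, which makes fructose 6-phosphate, had medians of 522.4 TPM in Apc-min Bmal1-null and 924.0 TPM in Apc-min organoids (-0.56 ± 0.12). Pfkl, the liver-type phosphofructokinase, had 126.0 TPM in Apc-min Bmal1-null and 255.6 TPM in Apc-min organoids (-0.56 ± 0.12). Tpi1, triosephosphate isomerase, had 815.0 TPM in Apc-min Bmal1-null and 1464.55 TPM in Apc-min organoids (-0.49 ± 0.11). Pfkp, Pgam1, Pkm, Eno1 and Hk2 differed by -0.46 to -0.34. P4ha1, a subunit related to P4ha2, had medians of 10.43 TPM in Apc-min Bmal1-null and 30.70 TPM in Apc-min organoids (-0.98 ± 0.20, adjusted p = 0.000112). Kdm3a, a histone demethylase, and Ddit4, an inhibitor of mTORC1 signalling, differed by -0.64 ± 0.15 and -0.58 ± 0.16, and Ankrd37 was also called (adjusted p = 0.00628). Gapdh was the member of highest median level in Apc-min Bmal1-null (2600 TPM), Apc-min (3658 TPM) and Bmal1-null organoids (2851 TPM) and Ldha in control organoids (2930 TPM, against 2822 TPM of Gapdh), where the ranges of both genes overlapped.

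**Figure D2:**
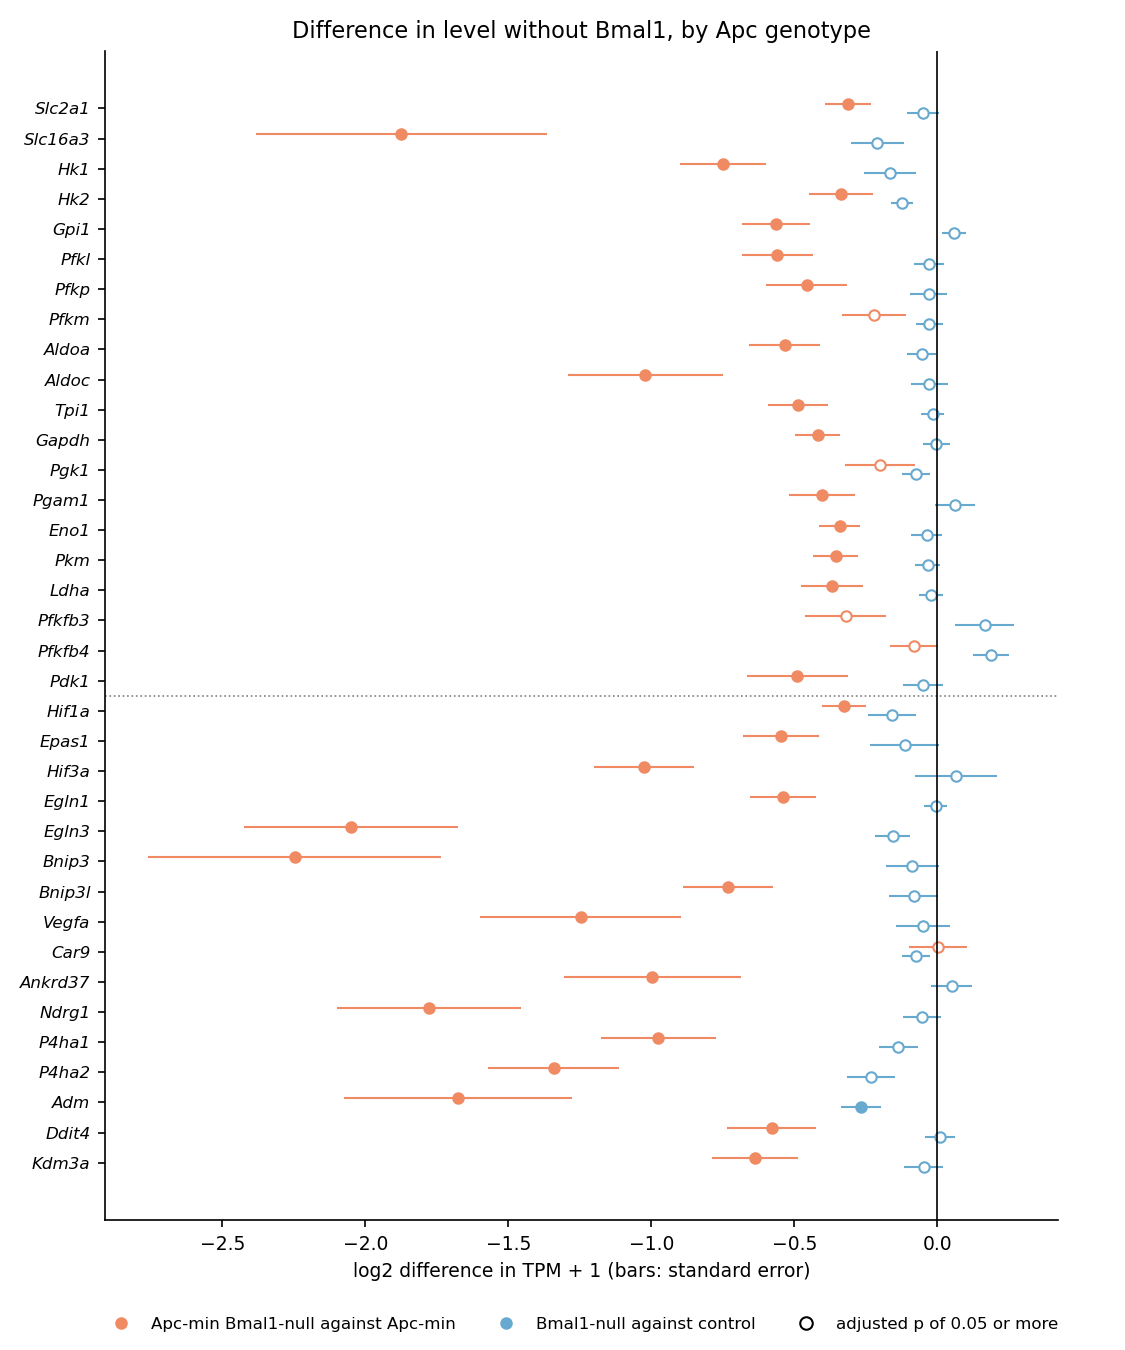
Log2 difference in TPM + 1 with its standard error for 36 members, Apc-min Bmal1-null against Apc-min (orange) and Bmal1-null against control (blue), with open symbols where the adjusted p is 0.05 or more and a dotted line between glycolysis genes (above) and HIF pathway genes (below). The orange values lie below 0 for all members but Car9, while the blue values lie between -0.27 and 0.19.

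The difference stood out more without the doubted 28 h pair, whose member values lay with the opposite genotype. The member of the pair labelled Apc-min Bmal1-null had 123.2 TPM of Slc16a3 and 268.1 TPM of Bnip3, the highest values of that genotype, and the member labelled Apc-min had 0.32 TPM of Slc16a3 and 2.11 TPM of Bnip3, the lowest of its genotype. Without this pair 33 of 36 members were lower (39.2% of all genes), with a median of -0.64, and Bnip3 fell to 0.157-fold (-2.67 ± 0.39). The library sets gave values of unequal size. In the lower-numbered libraries without the pair all 36 members were lower (39.2% of all genes), with a median of -1.08, and the difference was -4.41 ± 0.42 for Bnip3 (0.0472-fold) and -3.62 ± 0.55 for Slc16a3 (0.0814-fold). In the higher-numbered libraries, which differ in sex-linked genes, 23 were lower (35.3% of all genes), with a median of -0.33, and the values were -1.35 ± 0.35 for Bnip3 (0.391-fold) and -1.17 for Slc16a3 (adjusted p = 0.058). The difference between the sets was not tested, and the part of the organoid line in it was not tested. Since all 36 members were lower in the lower-numbered set without the pair, the 23 of the higher-numbered set were necessarily lower in both. Among these 23 were Hk1, Aldoa, Hif1a, Egln3, Bnip3 and Vegfa. The share of all genes lower in both sets is not given.

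By time window, the Bmal1 difference was called for more members in the late than in the early part of the course. From 40 to 46 h 33 members were lower (31.7% of all genes called lower), among them Egln3 by -2.11, Adm by -2.07 and Bnip3 by -2.01, and Car9 was again not called (0.12, adjusted p = 0.173). From 24 to 30 h limma called none, as for all genes (0%), and no member had an unadjusted p under 0.05 (0 of 36). Without the doubted pair, which falls in this window, 14 were lower (19.2% of all genes).

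Whether the Bmal1 difference depended on the Apc genotype was tested over all 88 libraries. Medium and library series go with the Apc genotype, so dependence on Apc cannot be told apart from dependence on either of them. The interaction was negative and called for 30 of 36 members (29.6% of all genes), 16 of 20 glycolysis and 14 of 16 HIF members, with a median of -0.56 (all genes -0.05). It was largest for Bnip3 (-2.34 ± 0.58, adjusted p = 0.000529), Egln3 (-2.01 ± 0.41, adjusted p = 3.02e-05), Slc16a3 (-1.88 ± 0.61, adjusted p = 0.00832) and Ndrg1 (-1.82 ± 0.37, adjusted p = 2.83e-05). The members not called were Hk2, Pfkm, Pgk1, Pdk1, Hif1a (-0.19, adjusted p = 0.209) and Car9. Without the doubted pair 32 were called (33% of all genes). The lower-numbered libraries without the pair gave 34 (31.9% of all genes) and the higher-numbered gave 6 (24.8% of all genes), namely Hif1a, Hif3a, Egln1, Egln3, Ndrg1 and P4ha2. With the mean of each genotype and library set as the unit limma called none (2.01% of all genes; 13 members at an unadjusted p under 0.05), and from 24 to 30 h none either (0.835% of all genes; 0 at an unadjusted p under 0.05).

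Apc-min organoids differed from controls in both directions. Of 36 members 12 were higher (50.5% of all genes) and 13 lower (31.1% of all genes), 10 of these 25 by 2-fold or more (24.5% of all genes). The members' median was -0.09 and that of all genes 0.17. Without the doubted library 12 were higher and 12 lower (50.6% and 30.8% of all genes). Ranges did not overlap for 4 members, and for 6 without that library, with the share of all genes not given. The medium and library series differ in the same way as the genotype and cannot be told apart from it. Among the enzymes, Hk1 had 47.29, 93.19 and 170.9 TPM (lowest, median and highest) in Apc-min and 25.82, 40.23 and 55.30 TPM in control organoids (1.22 ± 0.14, adjusted p = 4.43e-10, 2.33-fold). Pkm, pyruvate kinase, had medians of 2635 TPM in Apc-min and 1406 TPM in control organoids (0.83 ± 0.08, 1.78-fold), and Eno1, the main enolase, 2424 TPM in Apc-min and 1272 TPM in control organoids (0.78 ± 0.07, 1.72-fold). Pfkfb4 stood far lower, with 2.01, 3.355 and 5.63 TPM in Apc-min and 15.52, 22.93 and 27.57 TPM in control organoids, without overlap (-2.41 ± 0.10, adjusted p = 1.85e-22, 0.189-fold).

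The HIF alpha subunits differed from controls in opposite directions. Hif1a reached 45.93, 58.01 and 72.95 TPM in Apc-min, against 9.87, 17.27 and 25.50 TPM in control organoids, higher at all 12 time points without overlap (1.76 ± 0.08, adjusted p = 6.16e-21, 3.39-fold). Hif3a had 0.28, 3.71 and 9.76 TPM in Apc-min and 17.65, 39.15 and 54.63 TPM in control organoids, also without overlap (-3.15 ± 0.21, adjusted p = 6.12e-16, 0.113-fold). Epas1 had a median of 5.505 TPM in Apc-min and 12.88 TPM in control organoids (-1.04 ± 0.14, adjusted p = 3.18e-08). The level of Hif1a thus lay above those of Epas1 and Hif3a in all 22 Apc-min libraries, whereas in control organoids the median of Hif3a lay above that of Hif1a.

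Ndrg1 was the target with the clearest difference from controls, at 10.98, 141.3 and 288.6 TPM in Apc-min and 454.6, 634.3 and 802.8 TPM in control organoids, without overlap (-2.63 ± 0.25, adjusted p = 1.44e-11, 0.162-fold). Ankrd37, an ankyrin-repeat HIF target, had 4.47, 52.88 and 139.4 TPM in Apc-min and 82.04, 129.0 and 171.8 TPM in control organoids (-1.65 ± 0.26, adjusted p = 4.38e-07). P4ha2 went the other way, with 10.93, 49.12 and 113.8 TPM in Apc-min and 10.15, 16.38 and 23.62 TPM in control organoids (1.43 ± 0.20, adjusted p = 4.65e-08, 2.69-fold). Vegfa averaged lower, with 8.92, 59.74 and 233.3 TPM in Apc-min and 71.95, 116.8 and 167.5 TPM in control organoids (-1.11 ± 0.33, adjusted p = 0.00288). The Apc-min range of Vegfa enclosed that of the controls.

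The direction of many of these differences turned with the time window and the library set. From 24 to 30 h, without the doubted pair, 4 members were higher and 20 lower (39.7% and 31.6% of all genes), with a median of -0.65. From 40 to 46 h 23 were higher and 5 lower (42.5% and 22.7% of all genes), with a median of 0.51. Slc16a3 differed by -2.96 in the early and 0.46 in the late window, and 7 members in all were called in opposite directions. Only Hk1, Eno1, Pkm and Hif1a were called higher in both windows, and Pfkfb4, Epas1, Hif3a, Ankrd37 and Ndrg1 lower in both. By library set, the lower-numbered libraries without the pair gave 27 higher and 6 lower (39.5% and 28.3% of all genes) and the higher-numbered 6 higher and 22 lower (53.4% and 29.9% of all genes). Bnip3 was 9.07-fold higher (3.18) in the lower-numbered and not called (-0.38, adjusted p = 0.415) in the higher-numbered libraries, and 13 members were called in opposite directions. The share of all genes called in opposite directions is not given for either split, so these counts do not set the members apart. Hif1a was higher in both sets (1.66 in the lower-numbered and 1.94 in the higher-numbered), and Hif3a (-2.64 and -3.37) and Ndrg1 (-1.37 and -3.46) were lower in both.

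**Figure D3:**
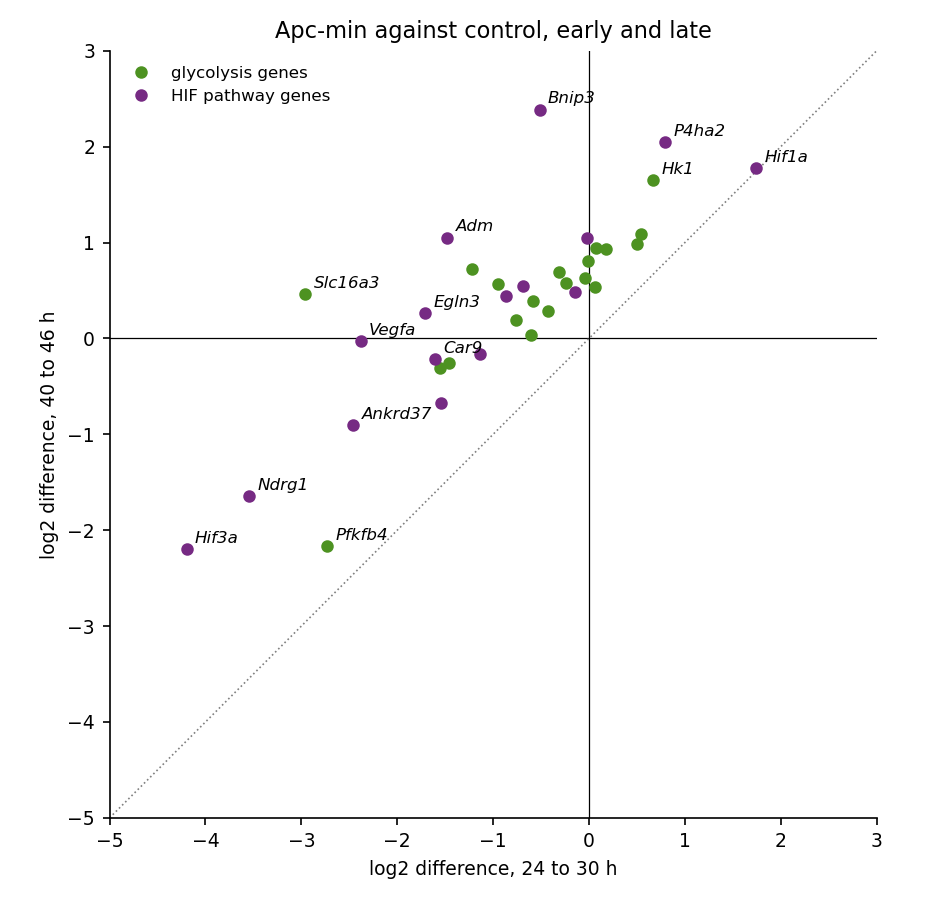
Log2 difference in TPM + 1 of Apc-min against control organoids for 36 members, at 24 to 30 h without the doubted library (horizontal) and at 40 to 46 h (vertical), with the dotted line at equal values. All 36 members lie on or above the line, Slc16a3 at -2.96 and 0.46, while Hif1a lies on it at 1.74 and 1.78.

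Without Bmal1, the Apc-min genotype had lower levels of most members, against Bmal1-null organoids. Here 4 members were higher (45.7% of all genes) and 25 lower (38.8% of all genes), 15 of these 29 by 2-fold or more (26.4% of all genes). Without the doubted library 4 were higher and 26 lower (45.2% and 40% of all genes). The 4 higher ones were Hif1a, Hk1, Pkm and Eno1, the same 4 that were higher in both windows in Apc-min against control organoids. Hif1a had 22.75, 48.21 and 66.11 TPM in Apc-min Bmal1-null and 9, 16.03 and 19.31 TPM in Bmal1-null organoids (1.56 ± 0.10, adjusted p = 2.57e-16, 2.96-fold). Ndrg1 had 6.31, 17.30 and 176.7 TPM in Apc-min Bmal1-null and 451.1, 620.9 and 797.3 TPM in Bmal1-null organoids (-4.50 ± 0.26, adjusted p = 7.26e-18, 0.0443-fold). Hif3a had 0.21, 0.635 and 3.59 TPM in Apc-min Bmal1-null and 20.69, 43.67 and 59.78 TPM in Bmal1-null organoids (-4.30 ± 0.15, adjusted p = 6.13e-25, 0.0508-fold). These 3 genes did not overlap between the genotypes, nor did Pfkfb4 (-2.71 ± 0.07) and Ankrd37 (-2.88 ± 0.25). Without the doubted library 9 members did not overlap, with Pfkp, Epas1, Egln3 and Vegfa added. The share of all genes without overlap is not given, so these counts do not set the members apart.

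Slc16a3 had 0.33, 12.15 and 123.2 TPM in Apc-min Bmal1-null and 50.91, 78.06 and 114.1 TPM in Bmal1-null organoids (-2.99 ± 0.45, adjusted p = 1.7e-07, 0.126-fold). Egln3 had medians of 30.86 TPM in Apc-min Bmal1-null and 240.8 TPM in Bmal1-null organoids (-2.76 ± 0.27), Vegfa of 16.77 TPM in Apc-min Bmal1-null and 112.0 TPM in Bmal1-null organoids (-2.46 ± 0.23), and Adm of 2.17 TPM in Apc-min Bmal1-null and 11.82 TPM in Bmal1-null organoids (-1.65 ± 0.24). Between library sets this comparison turned no call round, with 3 members higher and 25 lower in both (36.4% of all genes lower in the lower-numbered set without the pair and 35.6% in the higher-numbered set). Between time windows 3 calls turned round, those of Hk2, Pfkl and Pgam1, which were lower early and higher late. Here too the share of all genes that turned round is not given. From 24 to 30 h, without the doubted library, 4 members were higher and 29 lower (41.3% and 37.2% of all genes), and from 40 to 46 h 10 were higher and 19 lower (42.4% and 36.6% of all genes). As a share of all TPM, the 37 members made up a median of 1.23% in Apc-min Bmal1-null (range 0.777 to 2.35%), 1.98% in Apc-min (1.05 to 2.79%), 1.60% in Bmal1-null and 1.62% in control organoids. Without the doubted pair the share ran from 0.777 to 1.79% in Apc-min Bmal1-null (median 1.20%) and from 1.12 to 2.79% in Apc-min organoids (median 2.06%).

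Summed levels of several cell-type markers differed between Apc genotypes as well. Sums for stem, goblet, enteroendocrine and tuft cell markers are not given here. The summed level of 8 enterocyte markers had a median of 55.4 TPM in Apc-min Bmal1-null, 10.475 TPM in Apc-min, 6018 TPM in Bmal1-null and 6704 TPM in control organoids. For 4 Paneth cell markers the medians were 547 TPM in Apc-min Bmal1-null, 1957 TPM in Apc-min, 16741 TPM in Bmal1-null and 16873 TPM in control organoids. The 4 markers of fetal-like epithelium summed to 3110 TPM in Apc-min Bmal1-null, 3657 TPM in Apc-min, 193 TPM in Bmal1-null and 205 TPM in control organoids. Proliferation markers, 6 in number, summed to 1146 TPM in Apc-min Bmal1-null, 1028 TPM in Apc-min, 626 TPM in Bmal1-null and 631 TPM in control organoids. Epithelial markers were abundant in all genotypes (medians of 6659 to 9273 TPM), while the sums of fibroblast and immune markers stayed at or below 1.04 and 0.55 TPM. In bulk RNA fewer cells of a type and less RNA per cell cannot be told apart, and the part of cell make-up in the differences was not tested.

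Over time almost all of these genes rose in Apc-min organoids, and few slopes were called in organoids with wild-type Apc. In control organoids limma called no member's slope, against 2.2% of all genes, and 3 members had an unadjusted p under 0.05. In Bmal1-null organoids 3 rose (3.43% of all genes). These were P4ha1 (0.25 ± 0.06 log2 units per 10 h, adjusted p = 0.0136), Bnip3 (0.32 ± 0.08, adjusted p = 0.0203) and Egln1 (0.15 ± 0.04, adjusted p = 0.0291). Single libraries set this count, which was 6 without the library of 24 h, replicate 2 and 0 without that of 46 h, replicate 2. In Apc-min organoids 35 of 36 rose (22.2% of all genes), with a median slope of 0.68 for the members and 0.05 for all genes. Hif1a alone was not called (-0.05, adjusted p = 0.491).

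Slc16a3 and Bnip3 had the steepest rises of all 12625 genes tested in Apc-min organoids, at ranks 1 and 2. The median of Slc16a3 was 137.4 TPM at 40 to 46 h, against 5.33 TPM at 24 to 30 h, a slope of 2.36 ± 0.45 per 10 h (adjusted p = 0.00106, 5.13-fold). For Bnip3 the medians were 294.2 TPM late and 10.41 TPM early (2.26 ± 0.49, adjusted p = 0.00232, 4.79-fold). Adm (slope 1.79) and Vegfa (1.60) had ranks 6 and 8, with medians of 37.25 TPM late and 1.43 TPM early for Adm and of 140.6 TPM late and 11.11 TPM early for Vegfa. The most precise slopes belonged to genes of smaller change. Car9 had medians of 106.6 TPM late and 41.51 TPM early (0.74 ± 0.10, adjusted p = 3.77e-05), and Hif3a 6.27 TPM late and 0.81 TPM early (1.12 ± 0.15, adjusted p = 6.17e-05). Next came Pfkfb3 (0.83 ± 0.12), Slc2a1 (0.46 ± 0.07), Gpi1 (0.67 ± 0.11), Pdk1 (1.05 ± 0.17), Pfkp (0.75 ± 0.13) and Kdm3a (0.74 ± 0.13), with adjusted p from 0.000133 to 0.000602. Pfkp is the platelet-type phosphofructokinase. The summed glycolytic enzymes had medians of 22546 TPM late and 11462 TPM early.

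**Figure D4:**
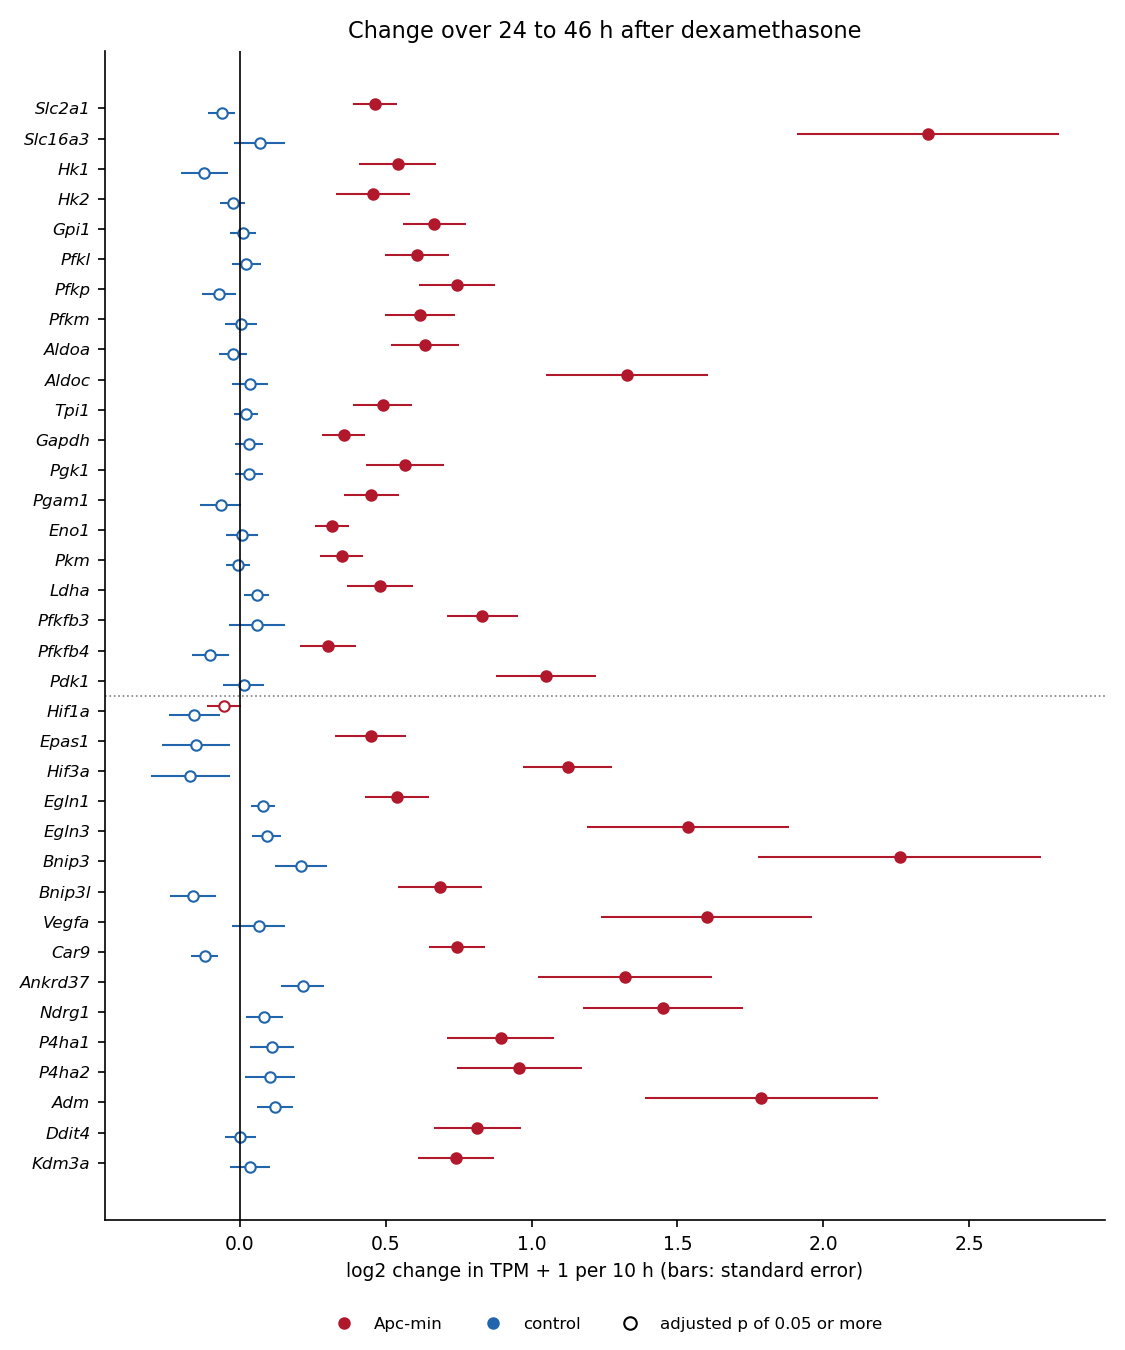
Log2 change in TPM + 1 per 10 h with its standard error for 36 members in Apc-min (red) and control organoids (dark blue), with open symbols where the adjusted p is 0.05 or more and a dotted line between glycolysis genes (above) and HIF pathway genes (below). All red values but that of Hif1a lie above 0, up to 2.36 for Slc16a3, and all blue symbols are open.

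The course was not alike in the library sets. In the higher-numbered Apc-min libraries Slc16a3 was at 1.59 TPM at 24 h, 7.08 TPM at 30 h, 54.36 TPM at 38 h and 168.3 TPM at 46 h. In the lower-numbered ones it was already at 104.2 TPM at 26 h and reached 154.9 TPM at 46 h, with only the doubted library at 28 h far lower. Bnip3 had the same pattern, at 5.42 TPM at 24 h and 232.3 TPM at 46 h in the higher-numbered libraries, and at 280.6 TPM at 26 h and 512.1 TPM at 46 h in the lower-numbered ones. In the higher-numbered libraries 35 members rose (25.1% of all genes), Slc16a3 by 2.77 per 10 h. In the lower-numbered libraries without the doubted library 22 rose (7.83% of all genes), with a median of 0.29, Slc16a3 by 0.32 and Bnip3 by 0.46. The difference between the sets' slopes was not tested. Over both sets without the doubted library 35 rose (18.4% of all genes). Of 6 proliferation markers 2 fell and none rose in Apc-min organoids, and their part in the rise of the members was not tested.

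Apc-min Bmal1-null organoids started low and rose late. Their slopes were called for 24 members, all upward (5.62% of all genes). All 24 also rose in Apc-min organoids, but 35 of 36 members rose there, so this overlap was almost fixed in advance. Slc16a3 (2.38 ± 0.51 per 10 h, adjusted p = 0.00346), Bnip3 (1.97 ± 0.46, adjusted p = 0.00726) and Ankrd37 (1.52 ± 0.27, adjusted p = 0.000666) had ranks 1, 2 and 3 among 12206 genes. Slc16a3 had a median of 50.24 TPM at 40 to 46 h, against 0.57 TPM at 24 to 30 h, and Ankrd37 of 48.74 TPM late and 5.585 TPM early. Both library sets began low, with early medians of Slc16a3 of 0.74 TPM in the lower-numbered libraries without the doubted one and 0.37 TPM in the higher-numbered ones. In the higher-numbered libraries the value of 16.61 TPM at 26 h stood above its neighbours. Car9 (0.79 ± 0.11, adjusted p = 2.85e-05) and Pdk1 (0.94 ± 0.17, adjusted p = 0.000765) had the lowest adjusted p besides Ankrd37, followed by Pfkl (0.61 ± 0.12), Ddit4 (0.66 ± 0.15) and Tpi1 (0.40 ± 0.09). Car9 had medians of 116.7 TPM late and 44.84 TPM early. The count rested in part on the last libraries, since it was 15 without either library of 44 h and 12 without that of 46 h, replicate 1.

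Leaving out the doubted library raised the count to 32 members (12.5% of all genes). In the lower-numbered libraries without it 33 rose (16.1% of all genes) and Hif1a fell (-0.22), and in the higher-numbered 15 of 35 tested rose (1.9% of all genes). The slopes differed between Apc-min and control organoids for 35 members (16.5% of all genes), all more upward in Apc-min, with the lowest adjusted p for Car9 (0.86 ± 0.11, adjusted p = 2.07e-06). The count was 35 without the doubted library (13.9% of all genes) and 35 in the higher-numbered libraries (16% of all genes). In the lower-numbered libraries without it the count was 13 (3.98% of all genes), and the slope difference of Ankrd37 was -0.076 there (adjusted p = 0.767). Between Apc-min Bmal1-null and Bmal1-null organoids they differed for 10 members (4.83% of all genes), again led by Car9 (0.81 ± 0.12, adjusted p = 1.05e-05), and for 29 without the doubted pair (8.75% of all genes).

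**Figure D5:**
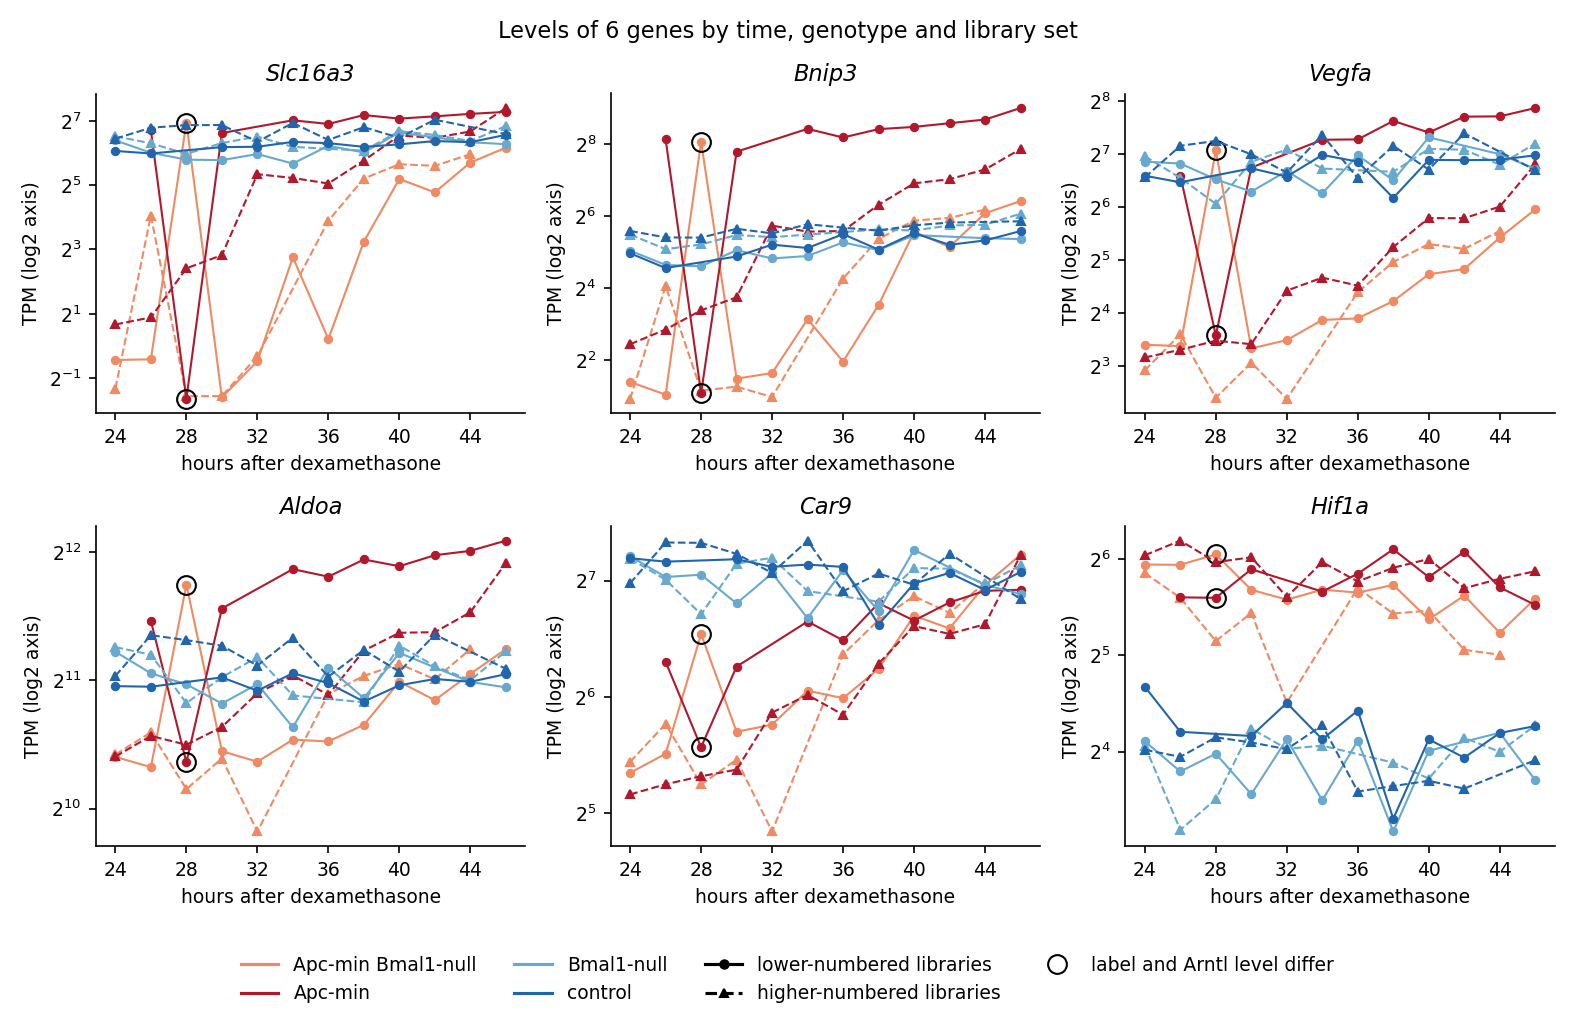
Level in TPM (log2 axis) of 6 genes in every library by hours after dexamethasone, with genotypes by colour, lower-numbered libraries as circles on solid lines, higher-numbered as triangles on dashed lines, and black rings around the doubted pair of 28 h libraries, whose labels and Arntl levels differ. Slc16a3, Bnip3 and Vegfa climb from near their lowest values in both Apc-min Bmal1-null sets and the higher-numbered Apc-min set, and start high in the lower-numbered Apc-min set, while in the other genotypes the only slope called among these 3 genes was that of Bnip3 in Bmal1-null organoids (0.32 per 10 h), and no rise of Hif1a was called in any genotype.

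A cosine of 24 h period was called for 17 members in Apc-min organoids (12% of all genes) and, without Bmal1, for 3 in Apc-min Bmal1-null organoids (2.59% of all genes). For Bmal1-null organoids limma called none (0% of all genes; 14 at an unadjusted p under 0.05) and none in control organoids (0.0557% of all genes; 3 at an unadjusted p under 0.05). The fitted peaks of the 17 fell between 40.0 and 41.5 h, with swings such as 14.7-fold for Slc16a3 and 5.27-fold for Ndrg1. The lowest adjusted p belonged to Hif3a (0.0163), Pfkfb3 (0.0175), Kdm3a (0.019) and Pdk1 (0.0194). In Apc-min Bmal1-null organoids Car9 peaked at 41.7 h with a 2.57-fold swing (adjusted p = 0.00913), and Pdk1 (3.18-fold) and Slc16a3 (20.3-fold) were called at 0.0231 and 0.0487. A single cycle was sampled, so a cosine cannot be told apart from a rise, and with a linear term in the fit 0 members were called in either genotype. Leaving out single libraries moved the count from 3 to 33 in Apc-min and from 1 to 32 in Apc-min Bmal1-null organoids, the 3 and the 32 being those without the doubted libraries. A rhythm difference was called in limma for no member between Apc-min Bmal1-null and Apc-min organoids (0% of all genes; 0 members also without the doubted pair) or between Bmal1-null and control organoids (0.0395% of all genes), with 1 member at an unadjusted p under 0.05 in each.

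Other genes of these pathways were counted by list. Of 24 further HIF targets tested between Apc-min Bmal1-null and Apc-min organoids, 16 were lower and 4 higher (35.7% and 24.6% of all genes). Angptl4, an inhibitor of lipoprotein lipase, was higher (2.47, adjusted p = 1.44e-08), as was the carbonic anhydrase Car12 (1.78), while the collagen-modifying enzyme Plod2 (-1.69) and the glycogen regulator Ppp1r3c (-1.53) were lower. Over time 18 of 24 rose in Apc-min organoids (22.2% of all genes), among them Ak4, Plod2 and Ero1l (1.54, 1.09 and 1.09 per 10 h). Of 20 other glycolysis, gluconeogenesis and pyruvate genes, 9 were lower in Apc-min Bmal1-null organoids, led by Ldhb (-2.57) and Pdk2 (-1.91), and 8 were higher (35.7% and 24.6% of all genes). Against controls, Apc-min organoids had lower levels of 14 of 26 of these and higher levels of 7 (31.1% and 50.5% of all genes), with Hkdc1 (-5.83), Fbp1 (-4.99) and Slc2a2 (-4.64), genes typical of enterocytes or liver, far lower and Ldhb higher (4.15). Of 10 other HIF pathway components, Cited2 (-0.38), Egln2 (-0.25) and Siah1a (-0.18) were lower and Arnt2 (0.35) higher in Apc-min Bmal1-null than in Apc-min organoids. The HIF-2 iron genes Slc40a1 (1.19) and Slc11a2 (0.29) were higher there.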

How the data were processed

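RNA was sequenced from organoids of 4 genotypes, and 88 of the 96 libraries named in the labels have values. TPM values, which scale transcript counts for gene length and library size, come from 4 tables that the authors deposited, 1 per genotype, with column sums of 999999.2 to 1000001.03. STAR 2.5, RSEM 1.3.0 and the build GRCm38 are named in the submitters' processing notes, which do not say what each was used for. Quantile-normalized TPM tables, made by the authors separately in each genotype, served only as an alternative. Read counts in the deposited alignment table are those the aligner logged, with 28.8 to 48.1 M uniquely mapped reads per library (median 35.4 M). The percent values in that table are shares of input reads per the file headers. The share of reads unmapped as too short had medians of 1.09% in Apc-min Bmal1-null, 1.15% in Apc-min, 5.45% in Bmal1-null and 6.14% in control libraries. Its part in the Apc differences was not tested.

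Of the 55536 gene IDs, 55450 have a symbol in GENCODE M21. Aldoa has a second ID (0.45 to 5.42 TPM), which was not counted. Values were analysed as log2(TPM + 1). Genes averaging at least 1 TPM in a compared genotype were tested in limma 3.58.1 (R 4.3.3) with a variance trend and Benjamini-Hochberg adjustment over all genes tested. Level fits had the time point as a factor, slopes a linear term in hours (given per 10 h), and rhythms a cosine and a sine of 24 h period. Errors are standard errors of the limma coefficient. Early and late medians cover 24 to 30 h and 40 to 46 h. The scripts were tested on simulated data.

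The members and all lists were chosen with earlier results of these data known. Named with values were the HIF alpha subunits, in each level comparison up to 8 called members of largest difference with 5 TPM or more in the higher genotype, in each time test up to 8 called members of lowest adjusted p, and up to 4 genes of each other list. Members named beyond this rule were chosen after their values were seen. Other pseudocounts, filters, scalings, a block for the library set and leaving out libraries were tried. Splits by library set and time window were chosen after seeing the data. Whether the library sets pair the genotypes was checked from the deviations of the libraries, whose correlation was 0.17 between Bmal1-null and control and -0.04 between the Apc-min genotypes.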

Additional observations from a re-analysis of the deposited data

Results flagged for a closer look

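Differences between genotypes in a contrast were tested directly. In each of these contrasts the Apc genotype cannot be told apart from medium and library series. The Bmal1 difference in level differed between Apc genotypes for 30 of 36 members (29.6% of all genes called in this direction), for 6 in the higher-numbered libraries alone, and for none in limma with set means as units (13 at an unadjusted p under 0.05). The interaction was -2.34 for Bnip3, -2.01 for Egln3, -1.88 for Slc16a3, -1.82 for Ndrg1, -1.51 for Adm, -1.31 for Vegfa, -1.16 for P4ha2 and -1.15 for Ankrd37 on the log2 scale.

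The slope differed between Apc-min and control organoids for 35 members (16.5% of all genes), and for 13 in the lower-numbered libraries without the doubted pair. Per 10 h the difference was 0.86 for Car9, 1.29 for Hif3a, 0.52 for Slc2a1, 0.82 for Pfkp, 1.03 for Pdk1, 0.66 for Gpi1, 0.66 for Aldoa and 0.85 for Bnip3l.

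Between Apc-min Bmal1-null and Bmal1-null organoids the slope differed for 10 members (4.83% of all genes), and for 29 without the doubted pair. The difference was 0.81 for Car9, 0.60 for Pfkl, 0.84 for Pdk1, 1.29 for Ankrd37, 0.67 for Ddit4, 2.22 for Slc16a3, 0.38 for Tpi1 and 0.79 for Aldoc.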

How the results depend on the processing

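The limits are those of the design. Library sets follow number order only, the lines behind the libraries are not given, a single cycle was sampled, and medium and library series go with the Apc genotype. The cause of the changes below was not tested, apart from those that follow from fewer libraries. The library set was used as a replicate block although its numbers do not pair the samples (correlations of 0.17 and -0.04).

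Counts of members called are given with their value under each alternative that moved them by over 1.5 times. The share of all genes called under the same setting is not given here, so a moved count may not be particular to the members. For Bmal1-null against control (1 called) the count was 2 with median-of-ratios scaling, 3 with the replicate block, and 0 with set means as units, in higher-numbered libraries, at 24 to 30 h and at 40 to 46 h. For Apc-min Bmal1-null against Apc-min (31) it was 12 with set means, 0 at 24 to 30 h and 14 in that window without the doubted pair. For the interaction (30) it was 0 with set means, 6 in higher-numbered libraries, 0 at 24 to 30 h and 11 in that window without the doubted pair. Both Apc comparisons kept counts within 1.5 times under every alternative run, but these counts pool both directions. For Apc-min against control, without the doubted pair, 13 members were called in opposite directions between the library sets. Between the time windows 7 were.

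For slopes, control organoids (0) had 2 with the replicate block and 1 in the authors' quantile-normalized table. Bmal1-null organoids (3) had 7 with median-of-ratios scaling, 5 with the replicate block, 5 in the quantile-normalized table, 0 in lower-numbered and 1 in higher-numbered libraries. Apc-min organoids (35) had 5 in lower-numbered libraries and 22 in those without the doubted pair. Apc-min Bmal1-null organoids (24) had 15 without a filter, 2 in lower-numbered and 15 in higher-numbered libraries. The slope difference of Apc-min against control (35) was 5 in lower-numbered libraries and 13 in those without the doubted pair. That of Apc-min Bmal1-null against Bmal1-null (10) was 19 with median-of-ratios scaling, 29 without the doubted pair and also with the replicate block, 1 in lower-numbered libraries and 21 in those without the pair.

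The cosine depended most on the setting. Control organoids (0) had 1 with the replicate block. Apc-min organoids (17) had 5 without a filter, 7 with median-of-ratios scaling, 35 with the replicate block, 34 with the block without the doubted pair, 3 without the pair, 9 in the quantile-normalized table, and 0 with a linear term and in either library set, with or without the pair. Apc-min Bmal1-null organoids (3) had 1 without a filter, 32 without the doubted pair and also with the block, 13 in higher-numbered libraries, and 0 with a linear term and in lower-numbered libraries with or without the pair.

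Leaving out each library in turn gave 0 to 2 called members for Bmal1-null against control, 31 to 34 for Apc-min Bmal1-null against Apc-min, 24 to 25 for Apc-min against control, 29 to 30 for Apc-min Bmal1-null against Bmal1-null and 29 to 32 for the interaction. Slopes gave 0 to 1 in control (the 1 without 24 h replicate 2), 0 to 6 in Bmal1-null (also 1 without 26 h replicate 1 and 5 without 38 h replicate 1), 34 to 35 in Apc-min and 12 to 32 in Apc-min Bmal1-null organoids. The slope difference gave 35 to 35 and 9 to 29, the 29 without the doubted Apc-min Bmal1-null library. Rhythm differences stayed at 0 to 0 in both comparisons, and the cosine at 0 to 0 in both genotypes with wild-type Apc. It gave 3 to 33 in Apc-min organoids, with over 1.5 times more or less than 17 without 13 of its libraries in turn, and 1 to 32 in Apc-min Bmal1-null organoids. All genes called by the cosine then ran from 401 to 2643 in Apc-min organoids. In Apc-min Bmal1-null organoids they ran from 151 to 1444.

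Directions of called members turned as follows. For Apc-min against control, lower-numbered libraries with or without the doubted pair gave Vegfa 0.59, Slc16a3 0.72, Egln3 0.78 and Ldha 0.28, and higher-numbered libraries Hk2 -0.14, P4ha1 -0.093, Gapdh -0.0053 and Bnip3 -0.38. At 24 to 30 h Hk2 was -0.090, P4ha1 -0.14, Pfkl -0.014, Slc2a1 -0.041 and Bnip3 -0.77, and without the doubted pair Hk2 -0.040, P4ha1 -0.022, Slc2a1 -0.015 and Bnip3 -0.52. At 40 to 46 h Slc16a3 was 0.46, Egln3 0.26 and Ldha 0.030. For Apc-min Bmal1-null against Bmal1-null at 40 to 46 h P4ha1 was 0.080 and Bnip3 0.32. The interaction at 24 to 30 h was 0.030 for Pfkp, 0.20 for Epas1, 0.015 for Slc2a1 and 0.030 for Hk1. The slope difference of Apc-min against control in lower-numbered libraries without the doubted pair was -0.076 for Ankrd37.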
